A study of Mus musculus with 7 samples.

Results

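Integrins that leukocytes carry on their surface were examined by their transcripts in macrophages sorted from tumours. The 10 genes were chosen by name from the 53379 genes of the count table: the alpha chain genes Itgal, Itgam, Itgax, Itga4 and Itga6 and the beta chain genes Itgb1, Itgb2, Itgb3, Itgb5 and Itgb7. All 10 passed the filter on low counts. The macrophages came from tumours of MC38, a mouse colon carcinoma line, in C57BL/6J mice on a high-fat diet, and were taken 21 days after the tumour cells were implanted. Cells were sorted as positive for CD45, CD11b and F4/80. The wild-type group had an intact Gpr65 gene, which encodes a proton-sensing G protein-coupled receptor (4 mice, 1 library each). The knockout group lacked Gpr65 (3 mice, 1 library each). Tumour line, diet and day were the same in both groups, and the labels do not say which cells the deletion covers. PolyA RNA was extracted with an RNeasy kit, and libraries were made with a Takara SMART-seq kit.

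Integrins are adhesion receptors made of 1 alpha and 1 beta chain, which pair before they reach the cell surface. The beta chain CD18 (Itgb2) pairs with CD11a (Itgal), CD11b (Itgam), CD11c (Itgax) or CD11d (Itgad), and these leukocyte integrins bind ICAM proteins, fibrinogen and complement fragments. The beta1 chain pairs with alpha4 and alpha6 among others, for binding to VCAM-1, fibronectin and laminins, and the beta7 chain pairs with alpha4 or alphaE. The alphaV chain pairs with beta3 or beta5 and binds vitronectin and other proteins with an arginine-glycine-aspartate motif. CD11b is itself one of the sorted proteins, so every cell sorted had to carry some of it. The part of the sort in the level of Itgam was not tested.

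Library totals ran from 22449772 to 30483733 counts, and knockout 1 had the fewest genes detected (18276, against 20286 to 23163 in the other 6) and the most tested genes at a count of 0 (940, against 51 to 281). Gpr65 itself stood at 90.9 ± 19.4 CPM (counts scaled to a common library size; mean ± SD over 4 mice) with the gene intact and at 0.921 ± 0.215 CPM (3 mice) after its knockout, so the targeted gene matched the labels in all 7 libraries. All 10 macrophage markers were detected in every group, with summed levels of 23874 to 28652 CPM in wild-type and 23127 to 46336 CPM in knockout libraries. All 10 were higher in the knockout mean. The highest sum was in knockout 2 and the lowest in knockout 1. The F4/80 gene Adgre1 ran from 327 to 661 CPM in wild-type and from 495 to 1332 CPM in knockout libraries. Markers of other cells were lower: the 10 T cell markers summed to 35.2 to 129 CPM in wild-type libraries and to 22.9, 73.5 and 518 CPM in knockout 1, 2 and 3, and the 8 natural killer cell markers to 39.8 to 170 and 38.6 to 474 CPM. In the knockout mean, 9 T cell markers were higher and 1 lower, and 6 natural killer cell markers were higher and 2 lower. The 10 neutrophil markers summed to 83.6 to 215 CPM in wild-type and 88.0 to 184 CPM in knockout libraries, with Ly6g at 0 in all 7. Csf3r, which macrophages can also express, made most of these sums in the knockout libraries and was the 1 marker higher in the knockout mean, while 8 were lower there (S100a8 stood at 1.46 to 15.0 CPM in wild-type and at 6.49, 0.0407 and 0.404 CPM in knockout libraries). In bulk RNA, fewer cells of a type and less RNA per cell cannot be told apart.

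The CD18 alpha chain genes lie in a cluster on chromosome 7 (build GRCm38, GENCODE M21 annotation): Itgal at chr7:127296260-127335138, Itgam at chr7:128062640-128118491 and Itgax at chr7:128129547-128150657, all on the plus strand. The annotation also holds Gm49368, a protein-coding read-through gene on the same strand at chr7:128062683-128128160, which the count table lists as a second row under the symbol Itgam. Of the 30 exons of the main Itgam transcript, 27 are identical in Gm49368, and 3450 of the 5024 exon bases of Itgam (68.7%) are shared with it. Gm49368 had 39 counts over all 7 libraries, against 3138 to 7253 per library for Itgam. The transcripts part after base 128116846. The next lines give the last 40 shared bases in lower case and the first 40 bases of each gene's own following exon in capitals, which start at 128117306 in Itgam and at 128126808 in Gm49368, because reads over this junction tell the genes apart.

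Itgam: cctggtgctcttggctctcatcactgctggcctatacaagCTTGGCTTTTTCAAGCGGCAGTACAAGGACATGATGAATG
Gm49368: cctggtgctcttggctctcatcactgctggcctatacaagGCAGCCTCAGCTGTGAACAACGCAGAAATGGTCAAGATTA

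Which program counted the reads is not stated in these sources. If reads that fit both genes were dropped, the counts of Itgam came from its other 1574 exon bases only. The level of Itgam per length is therefore given on both lengths below, while its fold change between groups is not affected by the choice of length. The other members share little exon sequence with other genes. Itga4 shares 8.04% of its exon bases with Cerkl on the opposite strand, and 8.02% of the 50-base stretches of Itgax also occur in Itgad.

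Promoter sequences from RefSeq (GRCm38.p6) were matched by symbol for 6 of the 10 members: Itgam, Itgax, Itga4, Itgb1, Itgb5 and Itgb7. The 250 bases before the RefSeq start are shown for Itgam (chr7:128062390-128062639, plus strand) and its neighbour Itgax (chr7:128129300-128129549, plus strand). They are sequences of the reference build and were not read from these mice. A link of promoter sequence to the levels in these mice was not tested. Capitals mark GAGGAA or its reverse complement TTCCTC, the core that PU.1, a transcription factor of the myeloid lineage, binds.

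Itgam: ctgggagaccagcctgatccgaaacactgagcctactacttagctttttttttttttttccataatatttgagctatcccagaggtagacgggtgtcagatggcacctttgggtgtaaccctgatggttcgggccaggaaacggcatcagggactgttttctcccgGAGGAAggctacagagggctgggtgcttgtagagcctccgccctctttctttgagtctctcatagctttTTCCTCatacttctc
Itgax: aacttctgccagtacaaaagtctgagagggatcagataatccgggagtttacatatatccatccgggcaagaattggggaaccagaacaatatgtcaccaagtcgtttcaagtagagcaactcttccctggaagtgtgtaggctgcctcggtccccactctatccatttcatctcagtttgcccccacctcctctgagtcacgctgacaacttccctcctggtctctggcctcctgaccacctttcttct

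The Itgam promoter held 2 matches and the Itgax promoter none. Of the 6 member promoters, 2 held a match on either strand (Itgam and Itgb1), against 23.3% of all 32851 promoters of the same length. A match is a stretch of letters and not a measured site.

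No integrin gene passed the test for a difference between the genotypes. edgeR called 0 of the 10 members at an adjusted p under 0.05, against 0.037% of the 16234 genes tested, and DESeq2 also called 0, against 0.603% of its 19895 genes. At an unadjusted p under 0.05, 1 member passed (Itgb3), against 5.37% of all genes. In 0 of the 10 members were the groups free of overlap, against 6.12% of all genes. The log2 fold changes, knockout minus wild-type, were positive in 4 members and negative in 6, with a median of -0.06, beside 0.00 over all genes tested. A difference that missed the threshold is given with its interval and is not shown to be absent.

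**Figure D1:**
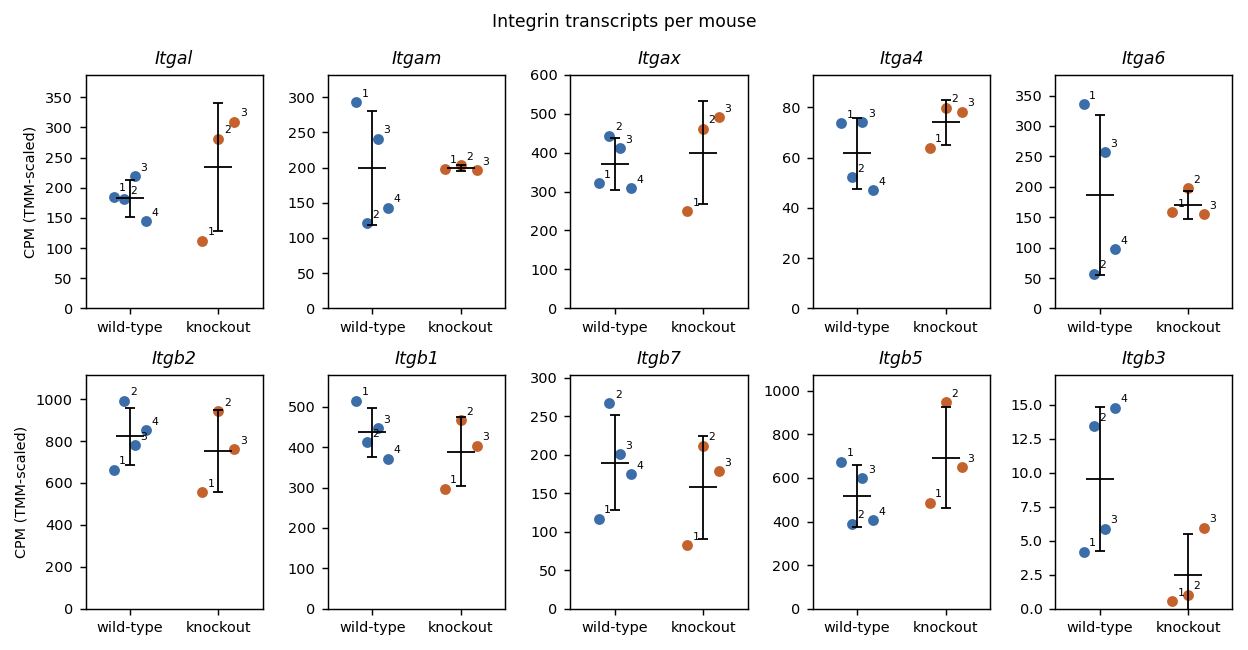
Levels of the 10 integrin transcripts in TMM-scaled CPM (vertical axis, from 0) in each wild-type (blue, n = 4) and knockout (orange, n = 3) mouse, numbered by mouse; bars give the mean and SD. The knockout points of Itgam lie within 195.9 to 203.5 CPM while the wild-type points run from 121.1 to 293.0 CPM, and the groups overlap in every panel.

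Among the CD18 alpha chains, Itgam (CD11b, a receptor for ICAM-1, fibrinogen and the complement fragment iC3b) had the same mean in both groups and a different spread. It stood at 293.0, 121.1, 240.7 and 143.0 CPM in wild-type mice 1 to 4 and at 198.5, 203.5 and 195.9 CPM in knockout mice 1 to 3. The highest wild-type value was 2.42 times the lowest and the highest knockout value 1.04 times the lowest, and all knockout values lay inside the wild-type range. The means were 199 ± 81.2 (SD, n = 4) and 199 ± 3.84 CPM (SD, n = 3), with a log2 fold change of 0.00 (SE 0.30, 95% interval -0.67 to 0.67; edgeR adjusted p = 1.00). Whether the spread itself differs between the groups was not tested.

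Itgax (CD11c, which also binds iC3b and marks dendritic cells and many tissue macrophages) was spread more widely in the knockout than in the wild-type mice. It stood at 321.9, 443.0, 410.7 and 308.5 CPM in wild-type mice and at 249.2, 460.8 and 490.0 CPM in knockout mice. Knockout 1 was the lowest of all 7 and knockout 2 and 3 the highest, so that the knockout values enclosed the wild-type ones. The log2 fold change was 0.11 (SE 0.26, 95% interval -0.48 to 0.70; edgeR adjusted p = 1.00). The summed dendritic cell markers were highest in wild-type 2 (236 CPM, of which Ccr7 made 170), the library with the third highest Itgax. They ran from 40.7 to 97.5 CPM in the other 6 libraries. Of the 7 markers, 5 were lower in the knockout mean and 2 higher, Xcr1 and Clec9a. Xcr1 stood at 5.66, 4.32, 8.86 and 6.10 CPM in wild-type mice and at 10.7, 18.9 and 20.4 CPM in knockout mice. Clec9a reached 3.32 CPM at most in wild-type mice and stood at 3.35, 3.70 and 3.71 CPM in knockout mice. The part of dendritic cell RNA in the Itgax level was not tested.

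Itgal (CD11a, the ICAM-1 receptor best known from T cells) showed the same order of knockout mice. It stood at 184.9, 180.5, 219.2 and 144.4 CPM in wild-type mice and at 112.5, 280.9 and 309.5 CPM in knockout mice. Knockout 1 was again the lowest, and knockout 2 and 3 were above every wild-type mouse. The means were 182 ± 30.6 and 234 ± 106 CPM, with a log2 fold change of 0.36 (SE 0.32, 95% interval -0.36 to 1.09; edgeR adjusted p = 1.00). Knockout 3 was also the library with the highest T cell sum (518 CPM), and without it the log2 fold change of Itgal was 0.11, against 0.68 without knockout 1. In knockout 2 the T cell sum was 73.5 CPM, within the wild-type range, while Itgal was 280.9 CPM. The part of T or natural killer cell RNA in the Itgal level was not tested. Itgad was nearly absent, at 0 to 0.658 CPM.

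The common beta chain Itgb2 (CD18, chr10:77530252-77565708) had the highest level per length of the 10 genes. It stood at 663.9, 992.5, 779.2 and 852.1 CPM in wild-type mice and at 554.9, 941.6 and 761.5 CPM in knockout mice. Wild-type 2 was highest and knockout 1 lowest, and the other 5 libraries were mixed between the groups. The log2 fold change was -0.13 (SE 0.23, 95% interval -0.65 to 0.39; edgeR adjusted p = 1.00).

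The makeup of the CD18 alpha chains was compared as each chain's share of their summed counts per exon base. Itgax made up 53.7% ± 8.58 of the alpha chain transcripts in the 4 wild-type mice and 51.8% ± 3.52 in the 3 knockout mice (mean ± SD). Itgam made up 27.1% ± 8.82 and 26.6% ± 8.57, and Itgal 19.1% ± 0.683 and 21.6% ± 5.04. None of the 3 shares passed in two-sided exact permutation tests of the 35 arrangements. The exact permutation p was 0.743 for Itgax, 0.971 for Itgam and 0.314 for Itgal, and at least 0.495 after Benjamini-Hochberg adjustment over 8 shares. The smallest p this design allows is 0.0286, so no share could have passed 0.05 on its own after this adjustment.

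The order of the alpha chains turned on the length used for Itgam. With all exon bases Itgax led in all 7 mice, at 43.6% to 64.1%, and the Itgam share ran from 16.8% in wild-type 2 to 38.0% in wild-type 1. With the exon bases that no other gene shares, a length added after the overlap was seen, Itgam made up 53.2% ± 11.2 and 52.8% ± 10.4 and Itgax 34.6% ± 9.67 and 33.2% ± 5.79. Itgam then led in every mouse but wild-type 2. The difference between the groups was -0.406 percentage points for Itgam on this length (exact permutation p = 1.00). The summed alpha chains came to 0.411 to 0.754 of Itgb2 per exon base with all exon bases, and to 0.605 to 1.29 of it with unshared bases.

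**Figure D2:**
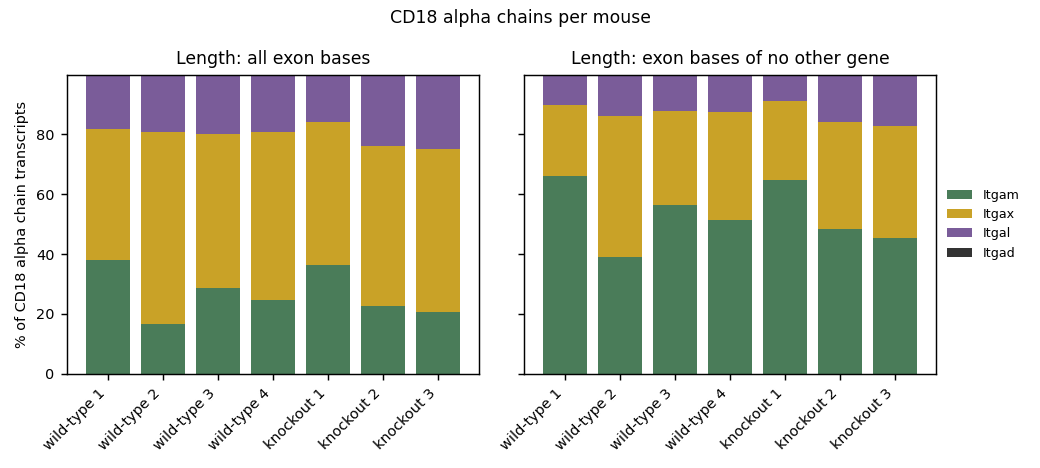
Share of each CD18 alpha chain (vertical axis, % of the summed counts per exon base) in the 4 wild-type and 3 knockout mice, with all exon bases as length (left) and with the exon bases that no other gene shares (right). Itgax (yellow) leads in all 7 mice on the left, and Itgam (green) leads in all but wild-type 2 on the right.

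Of the beta1 integrins, Itgb1 (chr8:128685654-128733200), the most widely shared beta chain, stood at 515.4, 412.2, 446.8 and 371.7 CPM in wild-type mice and at 296.7, 466.9 and 403.2 CPM in knockout mice. Wild-type 1 was highest and knockout 1 lowest. The log2 fold change was -0.17 (SE 0.20, 95% interval -0.63 to 0.30), the narrowest interval of the 10 beside that of Itga4. Itga4 (chr2:79255426-79333123), which pairs with beta1 or beta7 to bind VCAM-1 and fibronectin, stood at 73.6, 52.2, 74.0 and 47.1 CPM in wild-type mice and at 63.9, 79.9 and 78.2 CPM in knockout mice. Wild-type 2 and 4 were the lowest, and knockout 2 and 3 the highest. Its log2 fold change was 0.26 (SE 0.21, 95% interval -0.20 to 0.73), and it was 0.15 without wild-type 4.

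Itga6 (chr2:71745616-71858416), a laminin receptor chain, had the widest wild-type range of the 10 members as a ratio, at 335.6, 57.2, 256.5 and 97.6 CPM in mice 1 to 4. The knockout mice stood at 158.6, 197.5 and 155.2 CPM. Wild-type 1 and 3 were above all knockout mice and wild-type 2 and 4 below them. The highest wild-type value was 5.87 times the lowest, and the highest knockout value 1.27 times. The log2 fold change was -0.13 (SE 0.52, 95% interval -1.32 to 1.06; edgeR adjusted p = 1.00).

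Itgb7 (chr15:102215995-102231944, minus strand), which with alpha4 binds MAdCAM-1 and with alphaE binds E-cadherin, stood at 116.9, 266.7, 200.5 and 174.3 CPM in wild-type mice and at 82.4, 211.6 and 178.1 CPM in knockout mice. Wild-type 2 was highest and knockout 1 lowest, as for Itgb2. The log2 fold change was -0.27 (SE 0.36, 95% interval -1.07 to 0.54). Its partner Itgae was much lower, at 8.2, 18.5, 17.5 and 9.4 CPM in wild-type and 4.8, 6.5 and 8.9 CPM in knockout mice. Itgae did not pass the test (log2 fold change -0.99, edgeR adjusted p = 0.90).

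The beta chains that pair with alphaV stood far apart. Itgb5 (chr16:33829665-33949338), a vitronectin receptor chain, stood at 673.5, 390.8, 597.5 and 407.3 CPM in wild-type mice and at 486.1, 946.9 and 648.1 CPM in knockout mice. Knockout 2 was the highest, and wild-type 2 and 4 were the lowest. The log2 fold change was 0.42 (SE 0.28, 95% interval -0.22 to 1.07; edgeR adjusted p = 1.00), and it was 0.13 without knockout 2 and 0.61 without knockout 1. Among the beta chains counted per exon base, the Itgb5 share was 24.7% ± 6.97 in wild-type and 32.6% ± 2.10 in knockout mice. This difference of 7.93 percentage points did not pass (exact permutation p = 0.171, 0.495 adjusted over 8 shares). As above, no share could have passed on its own after that adjustment. Itgav, the alpha partner of these beta chains, stood at 127 ± 42.6 and 128 ± 7.60 CPM.

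Itgb3 (chr11:104608000-104670476), which pairs with alphaV and, in platelets, with alphaIIb, was the lowest member and the one with the largest difference. It had 101, 347, 177 and 404 counts in wild-type mice and 16, 25 and 162 counts in knockout mice, that is 4.2, 13.4, 5.9 and 14.8 CPM against 0.5, 1.0 and 6.0 CPM. Knockout 1 and 2 were below all other libraries, but knockout 3 was above wild-type 1 and 3, so the groups overlapped. The means were 9.56 ± 5.29 and 2.51 ± 3.00 CPM, with a log2 fold change of -1.93 (SE 0.82, 95% interval -3.80 to -0.06). The difference did not pass over all genes (edgeR unadjusted p = 0.0442, adjusted p = 0.922; DESeq2 adjusted p = 0.324). Adjusted p ran from 0.324 to 1.00 over the 16 alternatives. Without knockout 3 the log2 fold change was -3.61 (edgeR adjusted p = 0.698), and without knockout 1 it was -1.46.

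Levels of other genes ran beside Itgb3. The alphaIIb gene Itga2b was at most 1.76 CPM in any library, and of the 6 platelet markers Pf4 made nearly all of the sum (91.3 to 293 CPM, highest in wild-type 1, where Itgb3 was 4.2 CPM). Wild-type 2 and 4, the libraries with the most Itgb3, also had the most Cdh1, the E-cadherin gene (375 and 437 CPM, against 37.6 to 167 CPM in the other 5). Among those 5 the orders differed. Knockout 1 had the most Cdh1 of them (167 CPM) and the least Itgb3 (0.5 CPM). Knockout 3 had 76.0 CPM of Cdh1 and the most Itgb3 of them (6.0 CPM). The other epithelial markers were low: Epcam reached 5.30 CPM and Krt18 4.42 CPM at most. The part of tumour cell RNA in the Itgb3 level was not tested.

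Knockout 1, the library with the fewest genes detected, was the lowest of the 7 in Itgax, Itgal, Itgb2, Itgb1, Itgb7 and Itgb3. Without it, the log2 fold changes were 0.34 for Itgax, 0.68 for Itgal, 0.03 for Itgb2, -0.02 for Itgb1, 0.02 for Itgb7 and -1.46 for Itgb3, and 0 members were called by edgeR, against 14 genes of 16967. The part of gene detection in these levels was not tested.

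**Figure D3:**
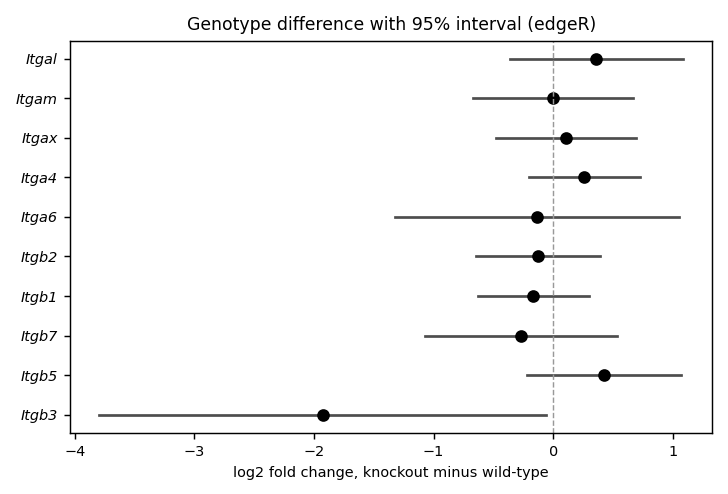
Log2 fold change of each integrin gene, knockout minus wild-type (horizontal axis), with its 95% interval from edgeR (4 wild-type and 3 knockout mice). The interval of Itgb3, -3.80 to -0.06, is the widest, and those of the other 9 include 0.

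Levels of different genes were compared as CPM per kilobase of exon, averaged over the 7 mice. The beta chains led, with Itgb2 at 260 CPM per kilobase, Itgb5 at 167 and Itgb1 at 102. Itgax followed at 79.8, then Itgb7 at 63.5, Itgam at 39.7, Itgal at 31.1, Itga6 at 19.9, Itga4 at 4.79 and Itgb3 at 1.11 CPM per kilobase. Itgb2 was above Itgb5, Itgb5 above Itgb1, Itga6 above Itga4 and Itga4 above Itgb3 in 7 of 7 mice. Itgb1 was above Itgax and Itgax above Itgb7 in 6 of 7. The neighbours Itgb7 and Itgam (5 of 7), Itgam and Itgal (4 of 7), and Itgal and Itga6 (5 of 7) did not keep their order beyond the spread between mice. With unshared exon bases, Itgam stood at 127 CPM per kilobase, in the third place. With the longest transcript as length, Itga6 (41.7) stood above Itgal (39.2).

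**Figure D4:**
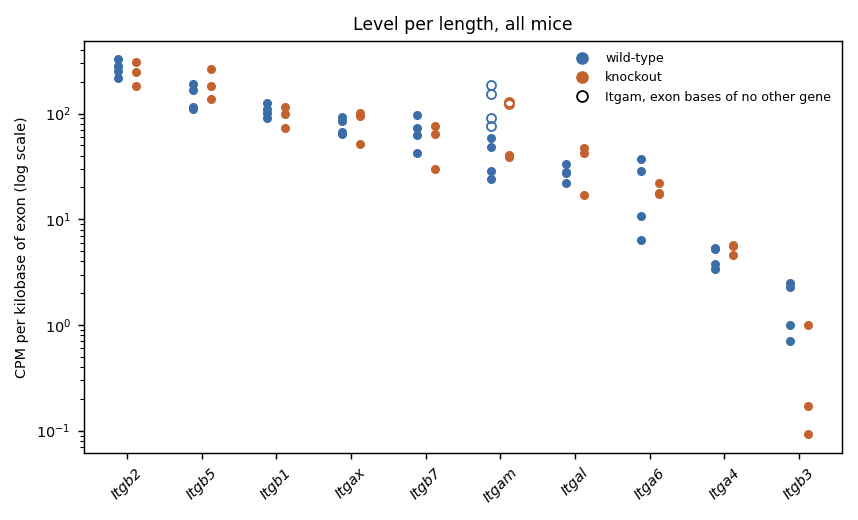
CPM per kilobase of exon (vertical axis, log scale) for the 10 integrin genes in order of their mean, in wild-type (blue, n = 4) and knockout (orange, n = 3) mice. Open circles give Itgam on the exon bases that no other gene shares, where its mean is 127 in place of 39.7 CPM per kilobase.

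Chains that pair in the protein were compared across the 7 mice by their log2 CPM, to ask whether partners varied together. None of the 8 partner pairs passed (exact permutation tests, two-sided, Benjamini-Hochberg adjusted over 8 pairs), and 0 of 8 had an unadjusted p under 0.05. Itgam and Itgb2 ran in opposite directions without passing (r = -0.57, rho = -0.50, exact permutation p = 0.175 and 0.267, adjusted p = 0.384 and 0.403), and without wild-type 1 and 2, the mice farthest from the median, r was -0.18. Itgax and Itgb2 had r = 0.72 and rho = 0.46 (exact permutation p = 0.0685 and 0.302, adjusted p = 0.325 and 0.403), with r = 0.64 without wild-type 4 and knockout 1, 0.41 without knockout 1 alone and 0.46 with scaling by library size alone. Itgav and Itgb5 had r = 0.69 and rho = 0.75 (exact permutation p = 0.0813 and 0.0663, adjusted p = 0.325 and 0.370), with r = 0.59 without wild-type 1 and 2. The other 5 pairs had r between -0.43 and 0.48.

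Over all 45 pairs of members, looked at after their values were seen, 4 passed (exact permutation tests, Benjamini-Hochberg adjusted over 45 pairs). The share of all gene pairs that would pass in these libraries was not computed. The 4 pairs are therefore not shown to be particular to integrins. The pair most alike was Itgam and Itga6, which do not pair in a protein. Both were highest in wild-type 1, then wild-type 3, and lowest in wild-type 2, with the 7 mice in the same order for both genes (r = 0.99, rho = 1.00, exact permutation p = 0.000198 and 0.000397, adjusted p = 0.00893 and 0.0179). Without wild-type 1 and 2, r was 0.98, and leaving out any 1 mouse gave 0.99. Taken as deviations from the genotype means, the values had r = 0.99 too. The mice highest in Itgam and Itga6 were not those highest in Itgb2.

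Itgb2 and Itgb7 also varied together (r = 0.96, rho = 0.89, exact permutation p = 0.00159 and 0.0123, adjusted p = 0.0357 and 0.185), with r = 0.83 without wild-type 2 and knockout 1. Itga4 and Itgb5 had r = 0.90 and rho = 0.86 (exact permutation p = 0.00258 and 0.0238, adjusted p = 0.0387 and 0.214), with r = 0.84 without wild-type 2 and 4. Itgax and Itgal had r = 0.91 and rho = 0.89 (exact permutation p = 0.00417 and 0.0123, adjusted p = 0.0469 and 0.185), with r = 0.70 without wild-type 4 and knockout 1. These 3 pairs passed by r and not by rho. All of the pairs share the same 7 libraries, with the depths and gene detection given above.

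**Figure D5:**
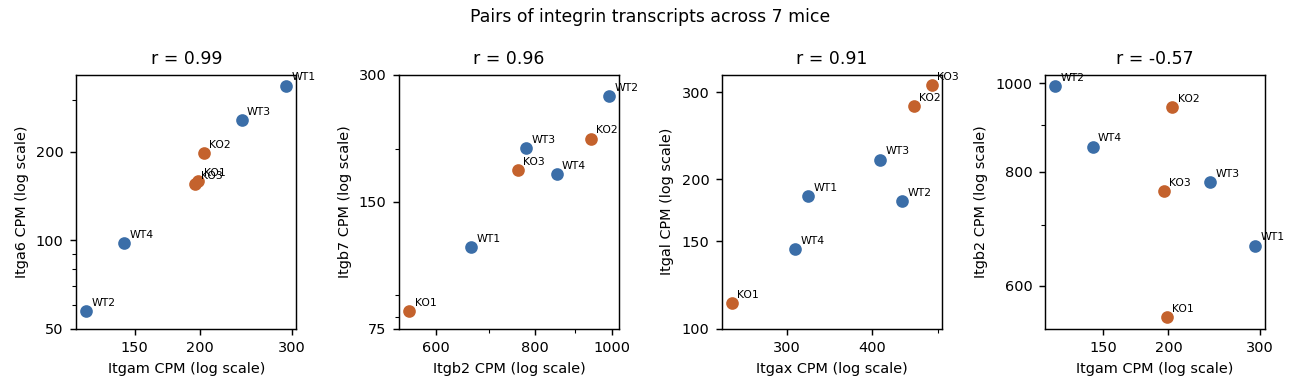
CPM of 1 integrin transcript against another (both axes log scale) in wild-type (WT, blue, n = 4) and knockout (KO, orange, n = 3) mice, with Pearson's r of the log2 CPM above each panel. Itgam and Itga6 have the same order over all 7 mice (r = 0.99), while Itgam and Itgb2 do not (r = -0.57).

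The genes most like the CD18 alpha chains across the 7 libraries were ranked by Pearson's r among 5175 named genes with an average log2 CPM of at least 5. Those most like Itgam were Wac (0.99), Zfp592 (0.99) and Fmr1 (0.98), which vary less than Itgam: Wac ran from 44.1 CPM in wild-type 2 to 66.7 CPM in wild-type 1. Of the 5175, 2 had a higher r with Itgam than Itga6 did, and 85 (1.64%) had r over 0.9. Those most like Itgax were Paf1 (0.98), Clk1 (0.97) and Pnpla7 (0.97), and those most like Itgal were Ptpn22 (0.99), Esyt1 (0.99) and Zfp800 (0.98). Ptpn22, a phosphatase of lymphocytes and myeloid cells, stood at 13.7 CPM in knockout 1 and at 76.6 CPM in knockout 3. These are descriptions over 7 points.

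Other genes of integrin function were read from 7 lists, and edgeR called none of their members. Of 16 other integrin subunits, 12 were tested, with 6 fold changes in each direction and a median log2 fold change of -0.08. The highest per kilobase were Itga5, the fibronectin receptor chain (199 ± 55.9 CPM in wild-type, 150 ± 11.1 CPM in knockout), and Itgav. Of 28 activators and adaptors, which carry signals to the integrin tails and link them to actin, 25 were tested, with 18 positive and 7 negative and a median of 0.06. The highest per kilobase were Rap1b, a small GTPase that activates integrins (648 ± 39.2 and 658 ± 93.4 CPM), and Slc3a2, the CD98 heavy chain (640 ± 44.7 and 689 ± 132 CPM). The adaptor Fyb had 289 ± 65.1 and 451 ± 112 CPM (log2 fold change 0.64, edgeR adjusted p = 0.868). The actin crosslinker Flna, which binds beta chain tails, had 989 ± 320 and 607 ± 100.5 CPM (log2 fold change -0.70, edgeR adjusted p = 0.917). Of the 19 kinases and GTPase regulators, all tested, 9 were positive and 10 negative (median -0.04). Their highest were the adaptors Fcer1g (1632 ± 252 and 2272 ± 546 CPM) and Tyrobp (1097 ± 209 and 1040 ± 271 CPM).

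Of 17 ligands of alpha4 and beta1 integrins, 11 were tested, with 2 positive and 9 negative and a median log2 fold change of -0.70, beside 0.00 over all genes. Fibronectin (Fn1) stood at 3012, 1380, 2148 and 2235 CPM in wild-type mice and at 1102, 220 and 267 CPM in knockout mice, without overlap. Its log2 fold change of -2.05 did not pass in edgeR (adjusted p = 0.736) and passed in DESeq2 (adjusted p = 0.0132). Osteopontin (Spp1) stood at 2392, 881, 1555 and 1824 CPM and at 1410, 222 and 170 CPM, with overlap (log2 fold change -1.47, edgeR adjusted p = 0.973). The laminin chain Lamc1 had 16.4 ± 3.70 and 10.1 ± 2.75 CPM without overlap (edgeR adjusted p = 0.917), and Lamb2 had 4.32 ± 2.05 and 1.59 ± 0.796 CPM (edgeR adjusted p = 0.909). Knockout 1 was nearest to the wild-type mice for Fn1 and Spp1. Fibroblast markers summed to 120 to 320 CPM in wild-type mice and to 299, 132 and 37.5 CPM in knockout mice 1 to 3. Col3a1 made most of each sum (30.4 to 240 CPM). Dcn stood at 14.1 to 70.6 CPM in wild-type mice and at 50.3, 15.5 and 6.51 CPM in knockout mice 1 to 3. At most, Col1a1 reached 2.20, Col1a2 2.62 and Pdgfra 8.75 CPM in any library. The 7 MC38 and epithelial markers were all lower in the knockout mean. They summed to 126 to 451 CPM in wild-type and 42.0 to 168 CPM in knockout mice, and nearly all of this was Cdh1. Markers other than Cdh1 reached 5.30 CPM at most (Epcam), and Krt19 and Cldn4 had counts in wild-type 4 alone. The part of these cells in the ligand transcripts was not tested.

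Of 8 alphaV ligands, 6 were tested and all 6 fold changes were negative (median -0.61). Edil3, a secreted ligand of alphaV integrins that bridges phagocytes and dying cells, stood at 1.58, 7.10, 2.82 and 6.43 CPM in wild-type mice and at 0.444, 0.570 and 1.36 CPM in knockout mice. The groups did not overlap, and its log2 fold change of -2.50 passed in DESeq2 (adjusted p = 0.0246) and not in edgeR (adjusted p = 0.730). The most abundant per kilobase were Tgfb1 (186 ± 32.9 and 168 ± 33.7 CPM) and Ccn1 (34.5 ± 22.8 and 29.3 ± 27.2 CPM). Of 12 CD18 ligands, 6 were tested, 5 positive and 1 negative (median 0.50). The highest per kilobase were F11r, the junctional protein JAM-A that CD11a/CD18 binds (311 ± 52.0 and 472 ± 219 CPM), and complement C3 (411 ± 383 and 449 ± 286 CPM).

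Of 12 other leukocyte adhesion receptors, 11 were tested, with 5 positive and 6 negative (median -0.01). The tetraspanins Cd81 and Cd82, membrane proteins that associate with integrins, were higher in every knockout mouse than in every wild-type mouse. These were 2 of the 11 tested, beside 6.12% of all genes without overlap between the groups, and the list's other tetraspanins had log2 fold changes of -0.36 (Cd9), -0.01 (Cd63) and 0.02 (Cd151). Cd81 stood at 506, 236, 504 and 385 CPM in wild-type and at 557, 1129 and 879 CPM in knockout mice (log2 fold change 1.07, edgeR adjusted p = 0.764, DESeq2 adjusted p = 0.108). Cd82 stood at 66.1, 69.3, 70.8 and 61.8 CPM and at 75.6, 151.6 and 130.3 CPM (log2 fold change 0.83, edgeR adjusted p = 0.730, DESeq2 adjusted p = 0.132). Neither passed in either tool. The urokinase receptor Plaur, which binds integrins laterally, had 506 ± 197 and 433 ± 60.0 CPM.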

How the data were processed

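RNA of sorted tumour macrophages from 7 mice (4 wild-type, 3 Gpr65 knockout) was analysed from a table of counts per gene that the authors deposited as raw whole numbers. Per the submitters' processing notes, BWA 0.7.12, cutadapt 1.15, DESeq2 1.24.0 and FastQC 0.11.5 were used on build GRCm38 (mm10), with no roles named. The sources used here do not name the program that assigned reads to genes or say whether it read strand. Genes were named by Ensembl identifier from GENCODE M21 (53274 of 53379 matched); unnamed rows took 0.000338% of all counts.

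Counts were fitted with edgeR 4.0.16 in R 4.3.3 (quasi-likelihood test, robust, TMM scaling, default filter on low counts, genotype as the only term, all 7 libraries, Benjamini-Hochberg adjusted p under 0.05). The filter left 16234 genes. Levels are TMM-scaled CPM, computed here, with a prior count of 2 on the log2 scale. The common biological coefficient of variation was 42.9%, which limits what 7 libraries can show. Shares and correlations were tested with exact permutation tests (scipy 1.17.1), two-sided. Alternatives were DESeq2 1.42.0, limma 3.58.1 voom, other scalings and filters, a replicate block, other lengths and leaving out each mouse. The scripts were tested on simulated data.

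Replicate numbers were not taken to pair the mice, since the labels do not say what same-numbered mice share. Deviations from the group means had correlations of 0.07, 0.05 and 0.09 in same-numbered mice and of -0.19 to 0.095 in the others. Deviations within a group constrain each other, so this check could not exclude a shared litter or day. Library pairs within a group differed far beyond sampling noise (chi-square per degree of freedom 27.2 to 297), so none was counted as a repeat. The labels name no batch.

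The members and gene lists were chosen with earlier results of these data known. Genes were named by rule: the 10 members and Gpr65; from each list those past the threshold, otherwise up to 4 with an unadjusted p under 0.05, plus the 2 highest per kilobase; and the 3 genes most correlated with each of Itgam, Itgax and Itgal. Itgae, Itgav, Itga2b, Cdh1 and the other markers named were given as partners or beside a result. Markers of macrophages and of 11 other cell classes were read as summed CPM.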

Additional observations from a re-analysis of the deposited data

Results flagged for a closer look

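In the 4 wild-type mice, Rap1b in wild-type 4 stood apart from the other 3 (589 CPM, against 664 to 670 CPM); the gap was 0.928 of the group's range, above Dixon's critical value for 4 samples. It was the only one of 39 sets of 4 values examined, and chance flags about 5% of such sets.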

How the results depend on the processing

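edgeR, DESeq2 and limma voom called 0 of the 10 members under the main settings, all 16 alternatives and a threshold of 0.1. In the same fits the count over all genes was 6 in the main fit, 120 with DESeq2, 9 with voom, 11 with no filter on low counts, 14 without knockout 1, 3 without knockout 2 and 1 with the replicate block. Since the labels do not say what same-numbered mice share, that block value is given here only. The sign of small differences changed. Itgam, at 0.00, was 0.0042 with RLE scaling and also 0.0042 with a filter of 1 CPM, 0.012 with upper-quartile scaling, 0.0026 with DESeq2 and -0.18 to 0.23 leaving out 1 mouse. Itgax was -0.031 on library size alone, -0.019 with the replicate block and -0.062 to 0.34 leaving out 1 mouse. With voom, Itgb2 was 0.071 and Itgb7 0.079; leaving out 1 mouse they ran from -0.32 to 0.033 and from -0.54 to 0.019, and Itga6 from -0.43 to 0.30. The share differences of Itgam and Itgax ran from -5.40 to 3.16 and from -5.26 to 1.57 percentage points leaving out 1 mouse, and the correlations of Itgal with Itgb2 and of Itga4 with Itgb7 from -0.035 to 0.63 and from -0.28 to 0.18. The cause was not tested. Library size alone moved the median of all genes to -0.11. The signs of Itgal, Itgb1, Itga4, Itgb5 and Itgb3 were the same in all 16 alternatives. Itgb3 had the largest SE of the 10 (0.82), with 16 to 404 counts in a library; Itgb5 ran from 0.13 to 0.61 and Itga4 from 0.15 to 0.35 leaving out 1 mouse.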
